A study of Mus musculus with 18 samples.

Results

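The growth hormone and insulin-like growth factor (IGF) axis of Alb-R26Met liver tumors was followed through 10 genes chosen by symbol: Ghr, Igf1, Igfals, Igfbp1, Igfbp2, Igfbp3, Igfbp4, Igfbp5, Igfbp6 and Igf1r. They are 10 of the 28442 genes of the deposited table, and all 10 were among the 11452 genes that passed the filter on low values. Bulk poly-A RNA was sequenced from 6 non-tumoral livers and 12 advanced tumors, all of the Alb-R26Met genotype, so the transgene is shared by both groups. In these mice Cre recombinase under the albumin promoter removes a stop cassette in hepatocytes and their precursors and thereby switches on a mouse-human chimeric Met receptor from the Rosa26 locus. The livers came from transgenic mice that had not developed tumors, so they stand for tissue that carries the transgene and not for wild-type liver. The study's methods name males of a mixed C57 and 129Sv background, and the 18 samples came from 17 mice, because tumors 11 and 12 were taken from 1 mouse. The study lists an age in weeks for each mouse, and ages differed within both groups.

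Growth hormone from the pituitary acts on hepatocytes through its receptor Ghr, the kinase Jak2 and the transcription factor Stat5b, and Stat5b drives transcription of Igf1 and Igfals. The liver is the main source of circulating IGF-I, most of which travels in a complex of IGF-I, the binding protein IGFBP-3 and the acid labile subunit encoded by Igfals. Binding proteins IGFBP-1 to IGFBP-6 hold IGF away from or close to its receptor Igf1r, and Igfbp1 is induced by fasting and cell stress and repressed by insulin. In rodents the rhythm of growth hormone release differs between the sexes, and a set of liver genes is held at male or female levels by it.

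The promoters of the genes with the largest differences are shown because each holds letters that belong to a known regulator of the axis. All 10 genes matched at least 1 of 14 RefSeq start sites of GRCm38.p6, each with a window of 250 bases before to 50 bases after the start. The Igfbp1 window, chr11:7197537-7197836 on the plus strand, holds TGTTTTG on the minus strand (CAAAACA in the plus strand printed here) 108 bases and TATTTTG 97 bases before the start, and these 2 blocks are in capitals. They make up the palindromic insulin response sequence described for this gene. They were searched for after the window had been read.
Igfbp1: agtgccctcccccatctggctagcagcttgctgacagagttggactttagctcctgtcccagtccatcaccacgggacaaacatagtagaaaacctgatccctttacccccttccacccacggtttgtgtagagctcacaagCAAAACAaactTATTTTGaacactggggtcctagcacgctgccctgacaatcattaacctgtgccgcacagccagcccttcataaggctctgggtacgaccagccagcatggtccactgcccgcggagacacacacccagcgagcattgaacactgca
On both strands, TGTTTTG was found in 6.28% and TATTTTG in 4.36% of 32851 promoter windows of the genome, and both together in 0.472%. Among the 10 genes 1, Igfbp1, held either.

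Igfals has 3 windows, and 2 of them hold the Stat5 motif TTCNNNGAA, where N is any base. The window shown, chr17:24877981-24878280 on the plus strand, has in capitals a FOXO motif, TGTTTAC, 242 bases before the start and the Stat5 motif 58 bases before it.
Igfals: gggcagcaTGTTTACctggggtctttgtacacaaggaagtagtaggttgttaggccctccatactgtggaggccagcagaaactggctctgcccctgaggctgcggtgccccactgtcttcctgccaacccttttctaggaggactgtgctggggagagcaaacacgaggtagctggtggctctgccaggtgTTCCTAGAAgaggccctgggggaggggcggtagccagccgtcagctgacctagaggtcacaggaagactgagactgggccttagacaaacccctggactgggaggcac
The Stat5 letters were found in 8.30% and the FOXO letters in 3.65% of the 32851 windows, and among the 10 genes 1, Igfals, held either. A match is a stretch of letters and not a measured binding site, and no 2 of the matches overlapped. Igfbp1 and Igfbp3 are neighbors on chromosome 11, with 3539 bases and no other gene between them, and Igfbp2 and Igfbp5 are neighbors on chromosome 1, with 5590 bases and no other gene between them.

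The deposited values are TPM rounded to whole numbers. TPM correct for transcript length and express each gene relative to its library, so levels of different genes can be set side by side. Their total ran from 835144 to 884597 in livers and from 845356 to 907513 in tumors, and the reads behind a value are not kept, so no counting error is given. A single gene, Siglece, held a large share of the deposited total, and whether this reflects its mRNA was not tested. In tumor 2 it took 82.9% of the total, against 17.9% to 29.5% in livers and 21.5% to 53.4% in the other tumors. For tests across samples, each sample was therefore divided by a scaling factor, which was 0.190 in tumor 2 and between 0.811 and 1.42 in all others, and values so divided are called scaled TPM. In tumor 2, 1 TPM becomes 5.25 scaled TPM, so low genes are coarse there. The label liver or tumor was set against markers: of 9 hepatocyte markers in the table, all were tested. Their summed level was 51015 to 70310 TPM in livers and 13706 to 96989 in tumors. The lowest was tumor 2, where Siglece took 82.9% of the total. As a mean of log2(scaled TPM + 1), tumor 2 was at 11.597, above the highest liver at 11.424. On that scale tumor 10 was the lowest tumor at 10.845, below the lowest liver at 10.984. Apoa1 and Ahsg were higher and Apoa2 lower in tumors, and Alb was at 19995 to 32414 TPM in livers and 6050 to 53033 in tumors.

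Liver 1 stood apart from the other 5 livers in the genes that growth hormone holds at male or female levels. Mup20, a major urinary protein, was at 25 TPM in liver 1 and at 1022 to 6341 TPM in the others. Slco1a1, an organic anion transporter, was not detected in liver 1 (0 TPM) but ran from 40 to 112 TPM elsewhere. Cyp4a12a, a fatty acid hydroxylase, was at 1 TPM against 133 to 272.
The female-biased genes went the other way. Cux2, a transcription factor typical of female liver, was at 10 TPM against 0, and Cyp2b9 was at 349 TPM against 1 to 43. Of 18 male-biased targets, liver 1 was the lowest liver in 13 and the highest in 0, and of 18 female-biased targets it was the highest in 14 and the lowest in 0, on scaled TPM. Over all 11452 genes tested it was the lowest in 22.8% and the highest in 28.7%. The Y-linked genes Ddx3y and Eif2s3y were at 18 and 17 TPM in liver 1, against 10 to 18 and 6 to 14 in the others, and Xist was at 0 in all 18 samples. This comparison was chosen after the values had been seen. Liver 1 also had the lowest Ghr of the livers, at 47 TPM against 137 to 203, the lowest Igfals and the highest Igfbp1, so results are given with and without it where they move.

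**Figure D1:**
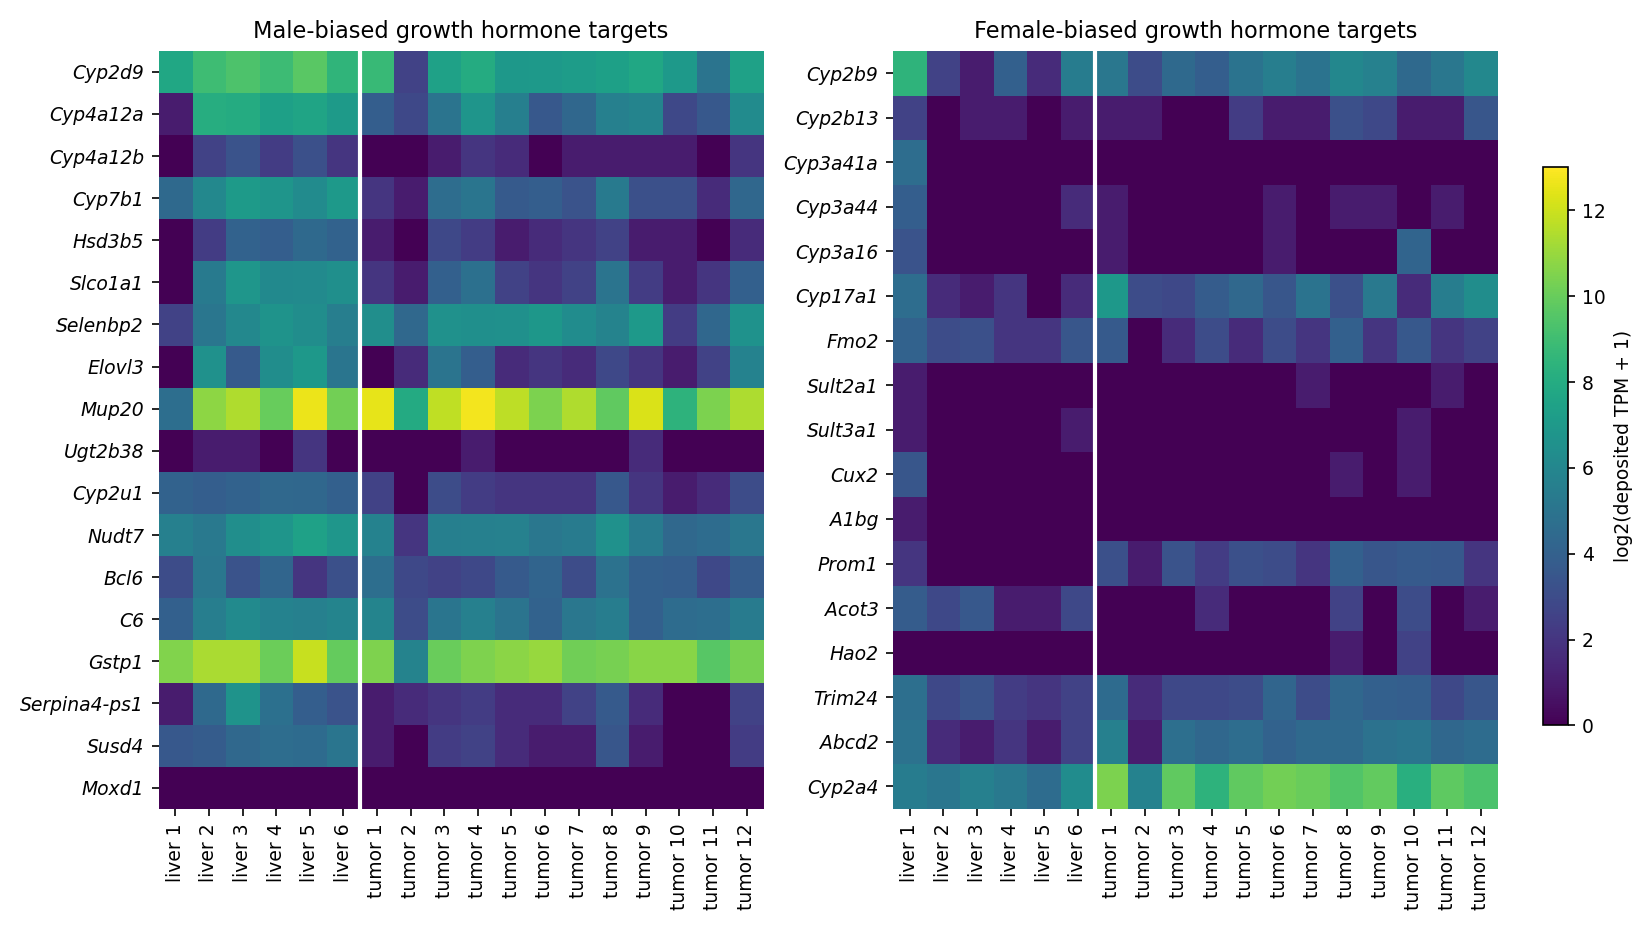
Heat maps of log2(deposited TPM + 1) for male-biased (left) and female-biased (right) growth hormone targets, with genes in rows and the 6 livers and 12 tumors in columns, livers left of the white line. Liver 1 is dark in male-biased rows such as Slco1a1 (0 TPM) and light in female-biased rows such as Cyp2b9 (349 TPM), while tumors are darker than livers in the Susd4 row (0 to 10 against 11 to 32 TPM) and mostly lighter in the Cyp2a4 row (54 to 1385 against 23 to 78 TPM).

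Across the axis, tumors had more Igfbp1 mRNA and less Igfals and Igf1 mRNA than livers. Of the 10 genes, 3 passed an adjusted p under 0.05 (limma over all 11452 genes tested), 1 higher and 2 lower, where 19.1% of all genes passed, 9.53% higher and 9.59% lower. The median log2 fold change of the 10 was -0.46, against -0.07 over all genes. Without liver 1, 6 of the 10 passed (2 higher and 4 lower), where 2498 of 11352 genes did. Without scaling between samples 3 also passed, with Igfbp6 in place of Igf1, and the median of all genes shifted by -0.11.

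**Figure D2:**
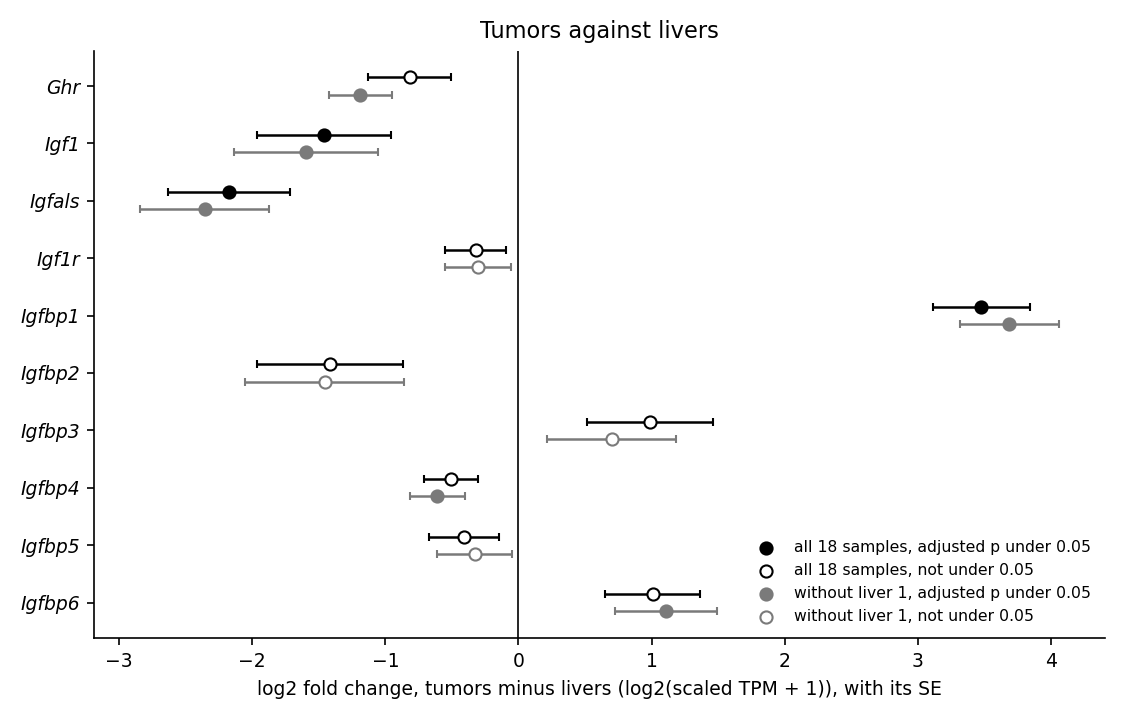
Log2 fold change of each gene, tumors minus livers, on log2(scaled TPM + 1) with its standard error, for all 18 samples (black) and without liver 1 (gray), with filled circles for an adjusted p under 0.05. Igfbp1 lies at 3.48 and Igfals at -2.18 with all samples, and the Ghr circle is filled only without liver 1.

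Ghr, the growth hormone receptor (chromosome 15, from 3317755 to 3583352, minus strand), was at 47, 137, 186, 170, 174 and 203 TPM in livers 1 to 6. In tumors it was at 14 TPM at the lowest, 87.5 at the median and 130 at the highest, with the lowest in tumor 2. Every tumor lay below the 5 livers other than liver 1, and on scaled TPM, where tumors ran from 35.9 to 123, liver 1 lay below all of them at 34.7. Tumor 2 was at 73.5 on scaled TPM, where tumors 10 and 11 were the lowest tumors at 35.9 and 40.7. With all livers the log2 fold change was -0.82 (SE 0.31, limma adjusted p = 0.0701), and without liver 1 it was -1.19 (SE 0.23, limma adjusted p = 0.00102). Leaving out tumor 4 gave -0.89 (limma adjusted p = 0.0487). In bulk tissue, fewer cells that express a gene and less RNA per cell cannot be told apart.

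Ghr was also lower in tumors when set against Alb, a hepatocyte transcript measured in the same sample. The log2 ratio of Ghr to Alb (each level plus 1) was -7.52 ± 0.89 (SD, n = 6) in livers and -8.89 ± 0.44 (SD, n = 12) in tumors, a difference of -1.37 (exact permutation test over 18564 assignments, two-sided, p = 0.000808, adjusted over 6 ratios p = 0.00242). Within the samples of tag E19 alone the difference was -1.93 (exact permutation adjusted p = 0.167) and within those of tag E20 alone -1.01 (exact permutation adjusted p = 0.114). E19 has 2 livers, liver 1 has tag E20, and the tags are described at the end. The ratio was -9.31 in liver 1, against -7.31 to -6.84 in the other livers. Without liver 1 the difference over both tags was -1.72 (exact permutation adjusted p = 0.000485). A ratio within a sample does not depend on the scaling, but Alb itself differed by 0.56 on the log2 scale (limma adjusted p = 0.0998). Of the genes between the receptor and the nucleus, Jak2 was at 2 to 3 TPM in livers and 1 to 4 in tumors (log2 fold change 0.30, limma adjusted p = 0.186). Stat5b, the main growth hormone dependent transcription factor of liver, was at 15 to 32 TPM in livers and 4 to 28 in tumors (log2 fold change -0.50, limma adjusted p = 0.114). Without liver 1 the Stat5b value was -0.65 (limma adjusted p = 0.0301). Its close relative Stat5a differed by -0.15 (limma adjusted p = 0.700).

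Of 16 genes of growth hormone signaling, 15 were tested, 1 was higher, 2 were lower and 12 did not pass. Over all genes tested, 9.53% were higher and 9.59% lower. The median log2 fold change of the list was -0.05, against -0.07 over all genes. The adaptor Sh2b1, which binds Jak2, fell by 0.86 on the log2 scale, from 57 to 119 TPM in livers to 16 to 82 in tumors (limma adjusted p = 0.0127). Cish, a Stat5-induced feedback inhibitor, fell by 0.81 (limma adjusted p = 0.0334) at levels of 1 to 6 TPM in livers and 0 to 3 in tumors, and without liver 1 its value was -0.74 (limma adjusted p = 0.0693). The adaptor Shc1 rose by 0.61 (limma adjusted p = 0.0132). Without scaling between samples, 0 of these genes passed in either direction. Socs2, the other Stat5-induced inhibitor of the receptor, was at 2 to 8 TPM in livers and 0 to 10 in tumors (log2 fold change 0.32, limma adjusted p = 0.608).

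Igf1, the main hormone made by the liver under growth hormone (chromosome 10, from 87858265 to 87937047, plus strand), was at 185, 204, 298, 232, 209 and 332 TPM in livers 1 to 6. In tumors it was at 5 TPM at the lowest, 109 at the median and 196 at the highest. In 10 of 12 tumors it lay below every liver, tumors 1 and 8 being the exceptions at 192 and 196 TPM, and tumors 10 and 2 lay far below the rest at 5 and 10 TPM. On scaled TPM 9 of 12 lay below every liver, and tumor 2 moved up to 52.5 while tumor 10 stayed at 4.28. The log2 fold change was -1.46 (SE 0.50, limma adjusted p = 0.0451), a 2.76-fold lower level. The call is close to the threshold: leaving out any of livers 2 to 6 or tumors 2, 5, 6, 11 or 12 put the adjusted p above 0.05, up to 0.0982, while the log2 fold change stayed between -1.60 and -1.11 whichever sample was left out. With tumors 11 and 12, which share a mouse, averaged, it did not pass (-1.45, limma adjusted p = 0.0594), nor with age as a covariate (-1.44, limma adjusted p = 0.0579). Leaving out tumor 10 gave the smallest difference and the smallest adjusted p, -1.11 and 0.00204 by limma.

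Set against Alb, Igf1 separated the groups fully. The log2 ratio ran from -7.35 to -6.44 in livers and from -11.9 to -7.62 in tumors, and all 12 tumors lay below every liver (difference -2.01, exact permutation test, two-sided, p = 0.000054, adjusted p = 0.000323). Alb itself was 0.56 higher in tumors on the log2 scale, with 10 tumors above every liver on scaled TPM, and the ratio includes this. The difference was -2.28 within tag E19 (exact permutation adjusted p = 0.25) and -1.69 within tag E20 (exact permutation adjusted p = 0.0317). How many other genes separate the groups when set against Alb was not tested.

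Igfals, the acid labile subunit that holds IGF-I in its large circulating complex (chromosome 17, from 24877844 to 24882011, plus strand), was at 31, 71, 53, 44, 42 and 55 TPM in livers 1 to 6. In tumors it ran from 2 to 42 TPM with a median of 10.5. Below every liver lay 11 of 12 tumors, with tumor 8 as the exception at 42 TPM, and on scaled TPM 10 of 12. Igfals fell by 2.18 on the log2 scale (SE 0.46, limma adjusted p = 0.00187), a 4.52-fold lower level. With any 1 sample left out the log2 fold change lay between -2.36 and -2.03, with limma adjusted p from 0.000759 to 0.00748.
The 4 tumors with the least Igfals were tumor 11 at 2 TPM, tumors 1 and 10 at 3 and tumor 6 at 4. Their Igf1 levels spread widely, at 49, 192, 5 and 85 TPM. As a log2 ratio, Igf1 to Igfals was 2.29 ± 0.40 (SD, n = 6) in livers and 3.01 ± 1.38 (SD, n = 12) in tumors (exact permutation test, two-sided, p = 0.239, adjusted p = 0.239).

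**Figure D3:**
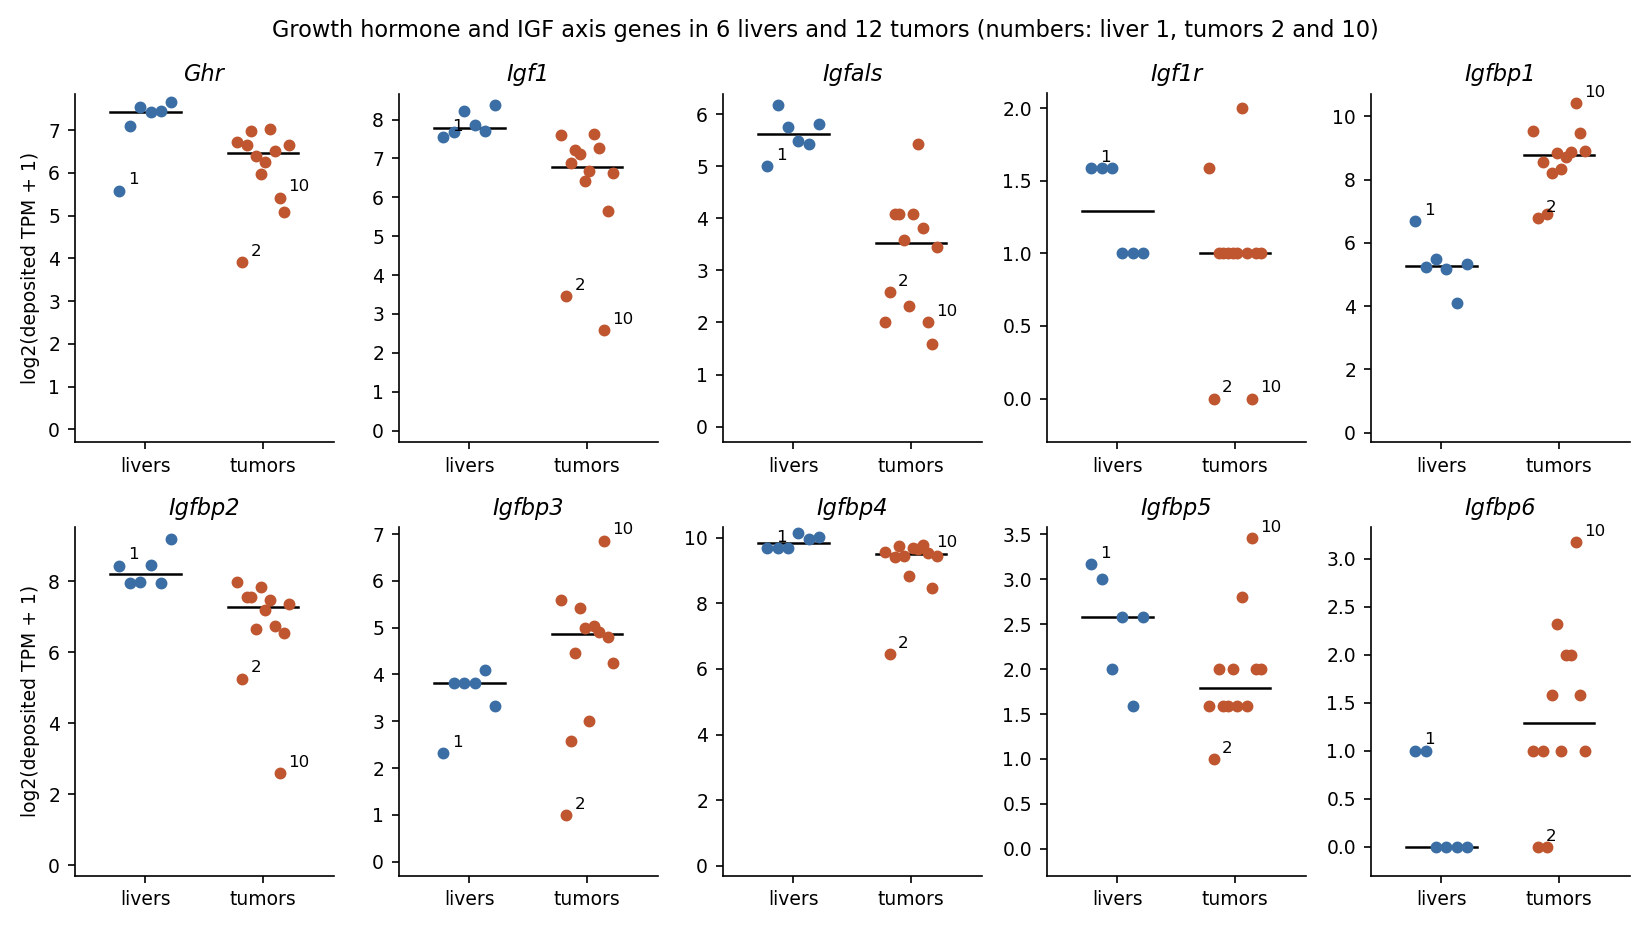
Each of the 10 genes in every sample, as log2(deposited TPM + 1), with 1 point per sample, livers in blue, tumors in orange and a line at each group's median. The 12 tumors sit above the 6 livers in the Igfbp1 panel (109 to 1357 against 16 to 102 TPM), and the points numbered 1, 2 and 10 are liver 1, tumor 2 and tumor 10.

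Igfbp1, the binding protein that insulin represses (chromosome 11, from 7197787 to 7202546, plus strand), was at 102, 37, 44, 35, 16 and 39 TPM in livers 1 to 6. In tumors it was at 109 TPM at the lowest, 441 at the median and 1357 at the highest. All 12 tumors lay above every liver, though tumors 2 and 4, at 109 and 119 TPM, lay close to liver 1. On scaled TPM the gap was wider, with 118 in the lowest tumor and 75.3 in the highest liver, and 2.17% of all genes tested had every tumor above every liver. Igfbp1 rose by 3.48 on the log2 scale (SE 0.36, limma adjusted p = 8.24e-07), an 11.2-fold higher level. The tumor with the most Igfbp1, tumor 10, was the tumor with the least Igf1, and tumor 4, with the least scaled Igfbp1, had the most scaled Igf1. Over all 12 tumors these 2 genes did not pass by Pearson's r (-0.71, permutation adjusted p = 0.0623) or Spearman's rho (-0.67, permutation adjusted p = 0.140).

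Igfbp2, made by hepatocytes and raised in fasting (chromosome 1, from 72824480 to 72852474, plus strand), was at 345, 244, 251, 352, 246 and 584 TPM in livers 1 to 6. In tumors it was at 5 TPM at the lowest, 154.5 at the median and 250 at the highest. On scaled TPM all 12 tumors lay below every liver, as in 1.07% of all genes tested, and on deposited TPM 11 did. The log2 fold change was -1.42 (SE 0.55, limma adjusted p = 0.0764), and without tumor 10, which was at 4.28 scaled TPM against 79.5 to 205 in the other tumors, it was -1.02 (limma adjusted p = 0.00328).

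Igfbp3, which carries most circulating IGF-I and is made in liver mainly by non-parenchymal cells (chromosome 11, from 7206086 to 7215498, minus strand), was at 4 to 16 TPM in livers. In tumors it ran from 1 to 115 TPM with a median of 28, and 9 of 12 lay above every liver. Tumors 2, 3 and 7 did not, at 1, 5 and 7 TPM. On scaled TPM 8 of 12 tumors lay above every liver. The log2 fold change was 0.99 (SE 0.47, limma adjusted p = 0.159). Without liver 1, the lowest liver at 4 TPM against 9 to 16 in the others, it was 0.70 (limma adjusted p = 0.338).
The log2 ratio of Igfbp3 to Igfals was -2.08 ± 0.51 (SD, n = 6) in livers and 1.16 ± 2.12 (SD, n = 12) in tumors, higher than every liver in 10 of 12 tumors (difference 3.24, exact permutation test, two-sided, p = 0.0027, adjusted p = 0.0054).

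Igfbp4, the most abundant of the 6 binding proteins in livers (chromosome 11, from 99040005 to 99052655, plus strand), was at 816 to 1129 TPM in livers and 86 to 878 in tumors with a median of 722.5. On scaled TPM tumors ran from 414 to 984 and livers from 603 to 1107, and 7 of 12 tumors lay below every liver. The log2 fold change was -0.51 (SE 0.20, limma adjusted p = 0.0843). It passed without liver 1 (-0.61, limma adjusted p = 0.0394), without tumor 7 (-0.57, limma adjusted p = 0.0451) and with the tag as a covariate (-0.62, limma adjusted p = 0.0154).
Igfbp5 and Igfbp6, typical of stromal cells, were scarce in both groups. Igfbp5 (chromosome 1, from 72858065 to 72874865, minus strand) was at 2 to 8 TPM in livers and 1 to 10 in tumors (log2 fold change -0.41, limma adjusted p = 0.307). Igfbp6 (chromosome 15, from 102144186 to 102149512, plus strand) was at 0 in 4 livers and at 1 in livers 1 and 2, and in tumors ran from 0 to 8 TPM. The Igfbp6 log2 fold change was 1.01 (SE 0.36, limma adjusted p = 0.0533). It was past the threshold without liver 1 (1.11, limma adjusted p = 0.0451), without tumor 2 (1.13, limma adjusted p = 0.0165) and without tumor 4 (1.13, limma adjusted p = 0.0228).

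The summed level of Igfbp1 to Igfbp6 overlapped between the groups, while its makeup differed. The sum was 1124 to 1684 TPM in livers, with a median of 1279.5, and 234 to 2238 in tumors, with a median of 1283. The lowest was that of tumor 2, where Siglece took 82.9% of the deposited total. Igfbp1 made up 3.50% ± 2.38 (SD, n = 6) of that sum in livers and 36.1% ± 14.6 (SD, n = 12) in tumors, and every tumor lay above every liver (exact permutation test, two-sided, p = 0.000108, adjusted over 6 shares p = 0.000323). The Igfbp2 share was 24.6% ± 5.55 (SD, n = 6) in livers and 11.5% ± 5.04 (SD, n = 12) in tumors, and every tumor lay below every liver (exact permutation p = 0.000054, the smallest these assignments can give, adjusted p = 0.000323). The groups nearly touched, with the highest tumor at 19.13% and the lowest liver at 19.17%.
Igfbp4 went from 70.6% ± 6.19 (SD, n = 6) of the sum to 49.9% ± 13.5 (SD, n = 12), with 10 of 12 tumors below every liver (exact permutation p = 0.00339, adjusted p = 0.00679). Igfbp4 was the leading binding protein in all 6 livers and in 8 tumors, and Igfbp1 led in tumors 2, 6, 10 and 11. Shares sum to 100, so a rise of 1 share lowers the others, and the Igfbp3, Igfbp5 and Igfbp6 shares did not pass, with exact permutation adjusted p of 0.0620, 0.0887 and 0.0558; leaving out tumor 2, 3 or 7 brought 2 more shares past the threshold. The Igfbp1 share differed by 33.9 percentage points within tag E20 (exact permutation adjusted p = 0.0238) and by 32.9 within tag E19, which has 2 livers and 7 tumors (exact permutation adjusted p = 0.111).

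**Figure D4:**
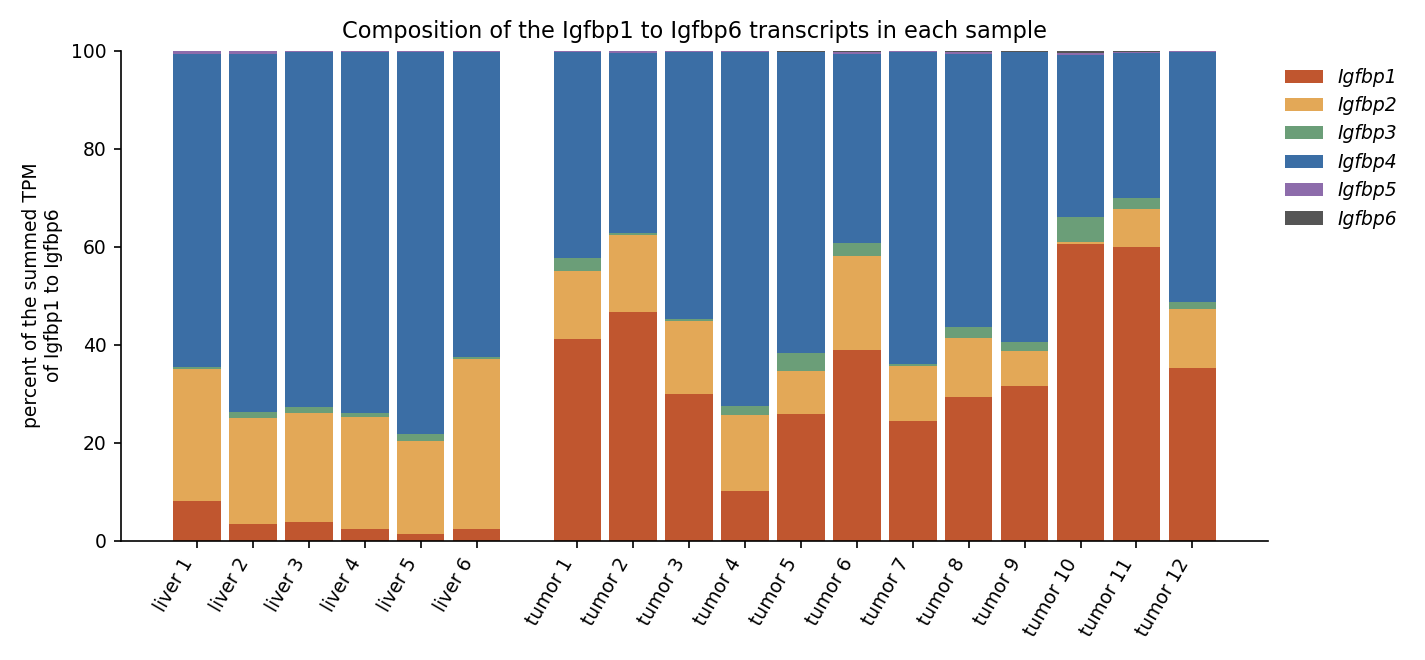
Stacked bars of the percent of the summed TPM of Igfbp1 to Igfbp6 that each gene made up, with 1 bar per sample, livers left and tumors right. The Igfbp1 part (bottom) is 1.25% to 7.99% in livers and 10.1% to 60.6% in tumors, and tumor 10 has an Igfbp2 part of 0.223%.

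Igf1 was also lower relative to the binding proteins in tumors. The log2 ratio of Igf1 to the sum of Igfbp1 to Igfbp6 was -2.47 ± 0.32 (SD, n = 6) in livers and -3.97 ± 1.54 (SD, n = 12) in tumors, and all 12 tumors lay below every liver (difference -1.50, exact permutation test, two-sided, p = 0.0133, adjusted p = 0.0186). Tumor 10 was the lowest at -8.54. Without liver 3 this ratio no longer passed (-1.39, exact permutation adjusted p = 0.0580).
The receptor Igf1r (chromosome 7, from 67952257 to 68233668, plus strand) was scarce in all samples, at 1 or 2 TPM in livers and 0 to 3 in tumors, with 0 in tumors 2 and 10. Its log2 fold change was -0.32 (SE 0.23, limma adjusted p = 0.357), and whole-number rounding leaves few distinct values at this level. Igf1 relative to Igf1r, as a log2 ratio, was 6.61 ± 0.52 (SD, n = 6) in livers and 5.29 ± 1.16 (SD, n = 12) in tumors (exact permutation p = 0.0155, adjusted p = 0.0186).

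Igf2, the fetal IGF, was at 0 in 5 livers and at 1 TPM in liver 2. Among tumors it was at 113 TPM in tumor 6, 37 in tumor 10, 9 in tumor 8, 5 in tumor 9 and 4 in tumor 7, and at 0 or 1 in the other 7. The high tumors were few, and the log2 fold change of 1.79 did not pass (SE 0.78, limma adjusted p = 0.117). Igf2r, which clears IGF-II, was at 6 to 22 TPM in livers and 4 to 50 in tumors (log2 fold change 0.35, limma adjusted p = 0.339), and Insr, the insulin receptor, at 54 to 118 TPM in livers and 19 to 158 in tumors (log2 fold change -0.13, limma adjusted p = 0.694).
The lowest Insr level, 19 TPM, was thus above the highest Igf1r level, 3 TPM. Of 21 genes of IGF and insulin signaling, 20 were tested, 1 was higher, 2 were lower and 17 did not pass. Over all genes tested, 9.53% were higher and 9.59% lower. The median log2 fold change of the list was -0.14, against -0.07 over all genes. Grb10, an adaptor that inhibits both receptors, rose by 1.15 (limma adjusted p = 0.00648), from 1 TPM in every liver to 1 to 17 in tumors. Pik3r1, the regulatory subunit of PI3-kinase, fell by 0.54 (limma adjusted p = 0.0114), and Foxo3, a transcription factor held back by insulin signaling, fell by 0.69 (limma adjusted p = 0.0275). Without scaling between samples, 1 gene of this list was higher and 0 were lower.
Proteases and other modulators of IGF binding were mostly at or near 0: of 13 listed, 7 were at 0 in every sample, among them Pappa, Pappa2 and Stc2, and 1, Igfbp7, was tested (log2 fold change 0.32, limma adjusted p = 0.390). Stc1, an inhibitor of the IGFBP protease PAPP-A, was at 24 TPM in tumor 10 and at 0 to 3 in the other samples.

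Of 18 growth hormone targets that are held at male levels, 16 were tested, 9 were lower in tumors, 0 were higher and 7 did not pass, where 9.59% of all genes were lower. Their median log2 fold change was -1.75, against -0.07 over all genes. Susd4, a complement inhibitor, fell by 2.96 (limma adjusted p = 3.96e-05), from 11 to 32 TPM in livers to 0 to 10 in tumors. Cyp7b1, an oxysterol hydroxylase, fell by 2.71 (limma adjusted p = 0.000532), and Cyp2u1 fell by 2.04 (limma adjusted p = 0.000234) with all 12 tumors below every liver on scaled TPM.
Slco1a1, Serpina4-ps1 and Cyp2d9 fell by 2.32, 2.17 and 1.82 on the log2 scale (limma adjusted p = 0.0375, 0.0194 and 0.00551). The remaining 3 lay between -1.78 and -1.12. Mup20 did not pass, at 250 to 6899 TPM in tumors and 25 to 6341 in livers (log2 fold change 1.12, limma adjusted p = 0.413). Bcl6, a repressor of female-biased genes, differed by 0.28 (limma adjusted p = 0.682). Without liver 1, 12 of the 16 were lower, now with Cyp4a12a, Elovl3 and C6, where 1276 of 11352 genes were lower. The median of the 16 was then -2.11, and Mup20 was at 0.01. Rescaling without Siglece left 7 lower. Within tag E19 alone 9 of 14 were lower (median -2.38), and within tag E20 alone 1 of 15 (median -1.26), where 1345 and 405 of all genes passed in either direction. Liver 1 has tag E20. Mup20, Cyp2d9 and Cyp4a12a belong to families with near-identical copies, so their values are uncertain.

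Of 18 female-biased targets, 9 were tested, 4 were higher, 1 was lower and 4 did not pass. Over all genes tested, 9.53% were higher and 9.59% lower. The other female-biased targets did not pass the filter on low values. The median log2 fold change of the 9 was 1.27, against -0.07 over all genes. Cyp2a4, a steroid hydroxylase with near-identical copies, rose by 4.05 (limma adjusted p = 3.5e-08), from 23 to 78 TPM in livers to 54 to 1385 in tumors. Prom1, also a marker of progenitor cells, rose by 2.63 (limma adjusted p = 2.23e-06), and among livers it was detected in liver 1 alone, at 3 TPM. Cyp17a1 rose by 2.65 (limma adjusted p = 0.00779), Abcd2 by 2.29 (limma adjusted p = 0.00044), and Acot3 fell by 1.77 (limma adjusted p = 0.0114).
Some female-biased genes found in liver 1 were not found in tumors. Cyp3a41a and A1bg were at 0 in all 12 tumors, and at 24 and 1 TPM in liver 1. For A1bg this is the smallest value above 0 that whole numbers allow. Cyp3a16, at 9 TPM in liver 1, was found in some tumors, with 17 TPM at the highest and 0 in 9 tumors. Cux2 was at 0 in 10 tumors and at 1 TPM in tumors 8 and 10, and it did not pass the filter on low values. Without liver 1, 6 of the 9 female-biased genes tested were higher, now with Cyp2b9 (2.13, limma adjusted p = 0.00345) and Trim24 (0.85, limma adjusted p = 0.0178), and 1 was lower. Of all 11352 genes tested without liver 1, 1222 were higher and 1276 lower.

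Among tumors, the spread of each gene was set against that among livers, as the mean absolute deviation from the group median on log2(scaled TPM + 1). No gene passed (0 of 10 by exact permutation test adjusted over 10 genes, with 1 at an unadjusted exact permutation p under 0.05). Igfals had the largest difference in spread, with 0.98 in tumors and 0.29 in livers (exact permutation p = 0.0268, adjusted p = 0.268). Igf1 had 0.73 and 0.27 (adjusted exact permutation p = 0.856), and without tumor 10 the difference of 0.45 came to 0.12. Ghr spread less in tumors than in livers, 0.36 against 0.49, but without liver 1 the order turned, with a difference of 0.23.

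Across the 12 tumors, 9 of 45 pairs of genes passed by Pearson's r (100000 permutations, Benjamini-Hochberg over the 45) and 0 by Spearman's rho. For Ghr and Igf1, r was 0.76 (permutation p = 0.00135, adjusted p = 0.0295) and rho 0.76 (permutation p = 0.00604, adjusted p = 0.136), and r was 0.80 without tumors 2 and 10. For Ghr and Igfals, r was 0.73 (permutation p = 0.00595, adjusted p = 0.0388) and rho 0.64 (permutation p = 0.0279, adjusted p = 0.140), and r was 0.78 without tumors 1 and 11. For Ghr and Igfbp1, r was -0.82 (permutation p = 0.0012, adjusted p = 0.0295) and rho -0.76 (permutation p = 0.0055, adjusted p = 0.136), and r was -0.60 without tumors 4 and 10.
Within the 7 tumors with tag E19 these r were 0.79, 0.96 and -0.88, none with an adjusted permutation p under 0.05, and the 5 with tag E20 were too few. With tumors 11 and 12 averaged as 1 mouse, Ghr and Igf1 passed (r = 0.83, permutation adjusted p = 0.0478), while Ghr and Igfals (r = 0.69, permutation adjusted p = 0.0780) and Ghr and Igfbp1 (r = -0.80, permutation adjusted p = 0.0613) did not. The Ghr and Igfbp1 relation depends on the scaling: on deposited TPM r was 0.11. For Ghr and Igfals r was then 0.62 (permutation adjusted p = 0.107), and for Ghr and Igf1 0.83 (permutation adjusted p = 0.0262). Tumor 2, where Siglece took 82.9% of the total, was low in both Ghr and Igf1 on deposited TPM, at 14 and 10. How far the r of Ghr and Igf1 on deposited TPM rests on this tumor was not tested. Without tumor 10, 0 of the 45 pairs passed, and without tumor 11, 1 did, which was none of these 3. Ghr and Igfals also no longer passed without any of tumors 3, 5, 6, 7, 9 or 12 (permutation adjusted p up to 0.0701), while r stayed between 0.66 and 0.83.

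**Figure D5:**
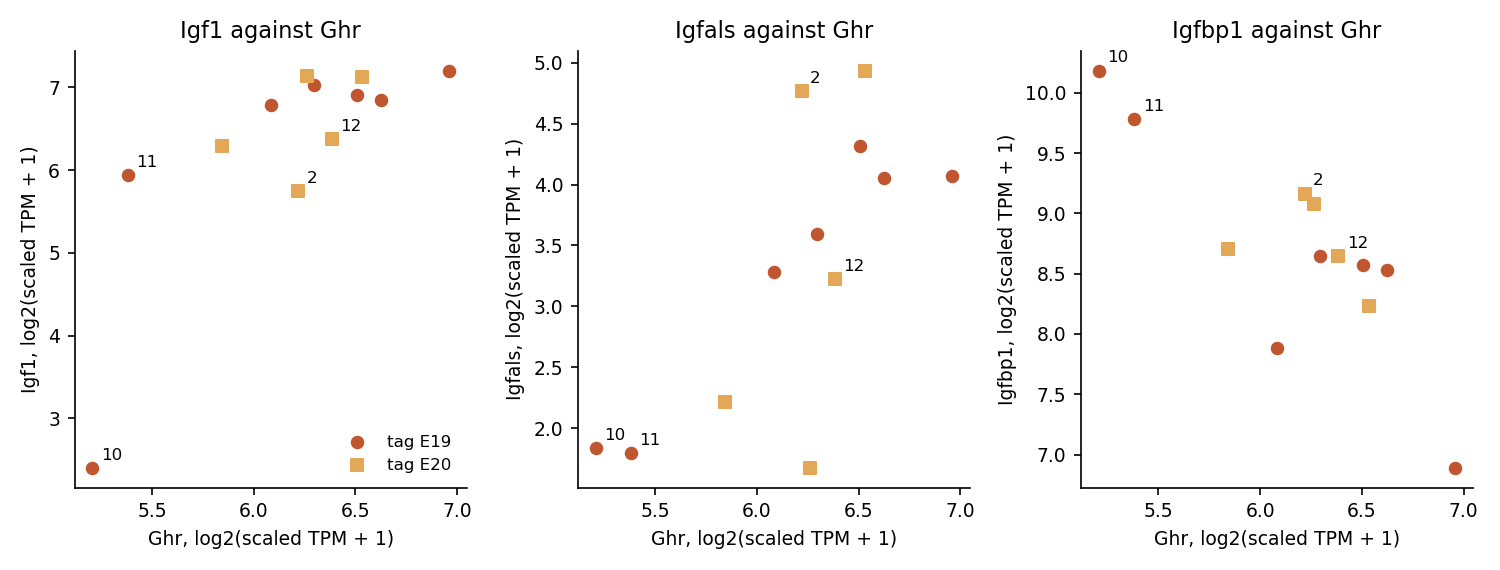
Igf1 (left), Igfals (middle) and Igfbp1 (right) against Ghr in the 12 tumors, all as log2(scaled TPM + 1), with circles for tag E19 and squares for tag E20. Tumor 10 lies at the low end of Ghr with 35.9 scaled TPM and at the top of Igfbp1 with 1161, and tumors 11 and 12 come from the same mouse.

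Among the other 6 pairs that passed, leaving out the 2 tumors farthest in the first gene moved r much in some and little in others. Igf1 and Igfbp5 had r = -0.82 (permutation p = 0.00197, adjusted p = 0.0295; rho -0.66, permutation adjusted p = 0.140), and r was -0.42 without tumors 2 and 10. Igfals and Igfbp3 had r = -0.72 (permutation p = 0.00787, adjusted p = 0.0393; rho -0.73, permutation adjusted p = 0.140), which was again -0.72 without tumors 1 and 11. Without tumor 10 it was -0.65 (permutation adjusted p = 0.182). On deposited TPM r was -0.29 for Igf1 and Igfbp5 (permutation adjusted p = 0.515) and -0.21 for Igfals and Igfbp3 (permutation adjusted p = 0.670).
The genes most like a member over the 12 tumors, by r on log2(scaled TPM + 1), were Gls2, Cyp2j5 and Hal for Igf1 (0.96, 0.95 and 0.95). They were Aldh8a1, Slc25a23 and Ugt2a3 for Ghr (0.97, 0.94 and 0.94), Angptl6, Serpina4-ps1 and Emc9 for Igfals (0.93, 0.91 and 0.88), and Pck1, Kynu and Pigr for Igfbp2 (0.97, 0.96 and 0.96). For Igfbp1 they were Ttc39a, Ocstamp and Zfand2a (0.84, 0.84 and 0.83), and for Igfbp6 Vim, Gsta4 and S100a6 (0.93, 0.91 and 0.91). These are the highest of 11452 genes and so are given as a description.

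Tumors 11 and 12, from 1 mouse, differed in the axis. Tumor 11 had 33 TPM of Ghr, 49 of Igf1, 2 of Igfals and 712 of Igfbp1. Tumor 12 had 99, 98, 10 and 478 TPM of the same genes. On log2(scaled TPM + 1), tumor 12 minus tumor 11 was 0.43 in Igf1, 1.43 in Igfals and -1.14 in Igfbp1. These 2 tumors are part of the correlations above.

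Markers of another cell type went with Igfbp6. Across tumors Igfbp6 went with the mean level of 10 stellate and fibroblast markers (r = 0.84, permutation p = 0.00051, adjusted p = 0.0204; rho 0.83, permutation p = 0.00115, adjusted p = 0.0460), the 1 of 40 pairs of members and marker lists that passed. The r was 0.76 without tumors 2 and 10 and 0.79 within tag E19, and leaving out tumor 1, 2, 10 or 12 gave permutation adjusted p of 0.0559 to 0.0880. Of these 10 markers 3 were higher in tumors (Col1a1, Col1a2 and Col3a1), 3 were lower (Dcn, Des and Lrat) and their summed level was 85 to 112 TPM in livers and 13 to 207 in tumors. Of 10 endothelial markers 3 were higher and 0 lower (summed level 59 to 97 TPM in livers and 44 to 125 in tumors), and of 6 Kupffer cell and macrophage markers tested 1, Clec4f, was lower (48 to 116 against 6 to 121 TPM). Over all genes tested, 9.53% were higher and 9.59% lower. The part of these cell types in the results was not tested.
Of the cholangiocyte markers, Spp1 was higher in tumors by 4.44 (limma adjusted p = 3.67e-07). Krt19 and Krt7 were at 0 to 2 TPM and Cftr at 0 in every sample, and of 4 erythroid markers tested 1, Alas2, was lower (5 to 56 TPM in livers and 1 to 22 in tumors).

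The tag E19 is on 2 livers and 7 tumors, the other 4 livers and 5 tumors have E20, and what the tags mark is not given in the sources used here. For 0 of the 10 genes did the difference between tumors and livers differ between tags (limma interaction, adjusted p from 0.958 to 0.990), nor for any other gene (0.00% of 11452, with 325 at an unadjusted p under 0.05). Igfbp1 was higher within each tag, by 3.96 in E19 (limma adjusted p = 0.00607) and by 3.28 in E20 (limma adjusted p = 0.00039). Igfals was at -2.23 (limma adjusted p = 0.0449) and -2.12 (limma adjusted p = 0.102), and Igf1 at -1.68 (limma adjusted p = 0.303) and -1.21 (limma adjusted p = 0.0841).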

How the data were processed

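Poly-A RNA of 6 livers and 12 tumors was measured by paired-end sequencing. The authors aligned reads to GRCm38 (mm10), quantified genes with Salmon 1.10.2 and normalized to TPM, and the submitters' processing notes also name edgeR, with no role. The deposited values are whole numbers and are treated here as a score, TPM that the authors rounded, which the study's supplement calls raw counts. TPM do not keep depth, so no counting intervals are given. An extra separator in 8 lines was handled by taking the last 18 fields, and 12874 genes were at 0 in every sample. Columns were matched to samples by the numbers and tags of the labels, and for 2 tumors whose mouse number differs between sources by the tumor number and tag.

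Scaling used 1 factor for each sample, an unweighted trimmed mean of M values (30% of M and 5% of A values trimmed at each end). Genes at 1 scaled TPM or more in 6 samples were fitted as log2(value + 1) by limma 3.58.1 (R 4.3.3) with trended prior variance and Benjamini-Hochberg adjustment over all genes tested. Fold changes are on that scale and understate those of low genes. Shares and ratios used the deposited values and exact permutation of group labels over all 18564 assignments, correlations 100000 permutations. Python 3.11.15, numpy 2.4.6, scipy 1.17.1, pandas 2.3.3 and matplotlib 3.10.9 were used, and the fit was tested on simulated data. The p-values set a difference or correlation against the spread between these samples. Tumors 11 and 12, from 1 mouse, were counted as separate samples except where they were averaged. Gene positions and promoters are those of RefSeq on GRCm38.p6. The symbols Tf and Ly6g of the marker lists did not match the table.

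The members and all gene lists were chosen with earlier results of these data known. Named genes are all members, up to 6 genes that passed per other list by size in each direction, 11 further genes whatever their result, and the 3 genes most like a member, without Gm and Rik symbols. Liver 1's comparison, Stc1 and genes printed only for liver 1 were chosen after their values were seen. Alternatives covered scaling, filter, pseudocount, tag, age, replicate block, tumors 11 and 12 averaged, sample weights, each tag alone and each sample left out. Leaving out tumors 2 and 10 together, and liver 1 for the gene lists, was chosen after seeing the data. Some genes of these lists are counted but not reported here by name.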

Additional observations from a re-analysis of the deposited data

Results flagged for a closer look

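Of 22 values looked at over the 6 livers, 4 had 1 liver whose gap to its nearest neighbor, divided by the whole range, passed Dixon's critical value, and chance alone marks about 1 in 20 such groups. Igfbp1 was highest in liver 1, at 102 TPM with the next liver at 44 (gap 0.674 of the range). The log2 ratio of Ghr to Alb was lowest in liver 1, at -9.31 with the next at -7.31 (gap 0.807). Igfbp2 was highest in liver 6, at 584 TPM with the next at 352 (gap 0.682). The log2 ratio of Igf1 to Igfals was lowest in liver 2, at 1.51 with the next at 2.29 (gap 0.733). The group of 12 tumors was too large for this check.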

How the results depend on the processing

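Igfbp1 kept its direction and passed in all 33 alternatives tried (limma adjusted p from 2.21e-08 to 0.00607). Igfals passed in all but the samples with tag E20 alone (range 0.000124 to 0.102). Igf1 kept its direction and lost its call in 19 of 33 (range 0.00138 to 0.303), among them no scaling (0.0623), no filter on low values (0.0505), pseudocount 0.5 (0.0511) and the tag as a covariate (0.0627). The main count of genes called, 2189, became 1341 without scaling, 4511 with sample quality weights, 1345 in E19 alone, 405 in E20 alone and 1682 to 3075 with 1 sample left out. Of the 10 axis genes 3 were called, against 8 with sample quality weights, 1 in E20 alone, 2 to 6 with 1 sample left out (6 without liver 1, 5 without tumor 4) and 6 without tumors 2 and 10, an alternative chosen after seeing the data. The replicate block, on the 12 samples whose numbers occur in both groups, called 1375 genes and 4 axis genes, with Igfbp2 added, where the same samples without the block called 1225 and 3. Same-numbered samples deviated together by a mean correlation of 0.175 (-0.106 to 0.425 over 6 pairs), so the numbers were not taken as pairing. Of the Igfbp shares 3 were called, against 0 in E19 alone and 3 to 5 with 1 sample left out. Of the 6 ratios 5 were called, against 0 in E19 alone and 4 to 5 with 1 sample left out, and E19 holds fewer samples. Of the pairs of genes across tumors 9 were called, against 3 with tumors 11 and 12 averaged, 0 in E19 alone and 0 to 12 with 1 tumor left out. Of the pairs with marker levels 1 was called, against 8 without scaling, 2 with tumors 11 and 12 averaged, 0 in E19 alone and 0 to 7 with 1 tumor left out. The correlation of Ghr turned to 0.11 with Igfbp1 and to 0.051 with Igfbp6 without scaling. The difference in spread of Ghr turned to 0.20 without scaling, and with 1 sample left out it ran from -0.22 to 0.23. That of Igfbp4 ran from -0.028 to 0.079 and that of Igfbp5 from -0.036 to 0.16. The cause of these changes was not tested. Whole-number TPM limit what can be seen in Igf1r, Igfbp5 and Igfbp6.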
